A study of Mus musculus with 24 samples.

Results

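Potassium channel genes were followed through the whole adrenals of control mice and of mice in which Cre deletes Prkar1a, which encodes a subunit that holds protein kinase A inactive. The members are the genes whose symbol starts with Kcn, followed by further letters and a closing number, which covers the pore-forming and the auxiliary subunits of potassium channels. Of 86 such genes with a probe set of their own on the array, 64 stood over a log2 signal of 5 in at least 4 of the 24 arrays and were tested, among 14411 genes tested in all. Kcnk3 was included by name, although no probe set carries its symbol alone. There were 4 arrays in each of 6 groups, all of mice aged 7 months on a mixed sv129-C57Bl/6 background. Knockout mice (KO) of all groups were Prkar1afl/fl;cre/+;mTmG/mTmG, with Cre inserted at Cyp11b2, which encodes aldosterone synthase and is active in the zona glomerulosa, so that Cre is made where Cyp11b2 is active. The 3 KO groups were females, intact males, and males gonadectomised during the last 2 months (GDX). Control (WT) females were Prkar1afl/+;cre/+;mTmG/mTmG and WT intact males were Prkar1afl/fl;+/+;mTmG/mTmG, so the former carried Cre and the latter did not. WT GDX males were of mixed genotype: array 1 was Prkar1a+/+;+/+;mTmG/mTmG, array 2 was Prkar1a+/+;cre/+;mTmG/+, array 3 was Prkar1a+/+;cre/+;mTmG/mTmG and array 4 was Prkar1afl/+;cre/+;mTmG/mTmG. The mTmG allele is a fluorescent Cre reporter, and it was present in all groups. Where WT groups are compared, sex or gonadal state and these genotype differences cannot be told apart. The same holds where the change with KO is compared between females, intact males and GDX males, since each change uses its own WT group. KO and WT intact males also differ in Cre, as do KO GDX males and WT GDX array 1, whereas all females carried Cre.

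Potassium channels set the resting membrane potential of adrenal cells. In the zona glomerulosa, two-pore domain channels of the TASK kind, encoded by Kcnk3 and Kcnk9, carry a leak current that keeps the membrane close to the potassium equilibrium. When angiotensin II lowers that current or extracellular potassium rises, the cell depolarises, voltage-gated calcium channels open and aldosterone is made. Voltage-gated, calcium-activated and inwardly rectifying potassium channels shape the electrical activity of glomerulosa cells and of the chromaffin cells of the medulla, and auxiliary subunits change the gating or the traffic of the pore subunits.

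Prkar1a itself and markers of several cell types differed between the groups. Prkar1a was lower in KO than in WT by -1.43 ± 0.23 in females (log2 change ± standard error from limma, adjusted p = 5.83e-05) and by -1.19 ± 0.23 in the GDX males (adjusted p = 0.00477), while in intact males the change was -0.92 ± 0.23 (adjusted p = 0.16). The KO intact males were uneven, at 6.89 to 8.47 (SD 0.69), against 8.72 to 8.91 in WT intact males (SD 0.10). The SD was 0.32 in KO females and 0.30 in KO GDX males. Markers of the zona glomerulosa, medulla, fat and capsule were all read in these whole glands. Of 8 glomerulosa markers tested, 6 fell in KO females, and the mean log2 signal of the list was 8.61 to 8.95 in the WT and 7.02 to 7.39 in the KO females. Of 13 medulla markers, a list that includes Th, Pnmt and Chga, 10 fell in KO females, with list means of 9.23 to 9.59 in WT and 8.61 to 9.12 in KO. The arrays of WT and KO females overlapped for Th (10.41 to 10.87 and 9.75 to 10.53) and for Pnmt (8.51 to 9.03 and 8.29 to 8.90). Of 7 capsule and mesenchyme markers 7 fell, with list means of 8.10 to 8.31 in WT and 7.13 to 7.37 in KO, and of 8 adipocyte markers 5 fell, with 8.87 to 9.76 in WT and 7.89 to 8.65 in KO. Of 7 smooth muscle and pericyte markers 4 fell in KO females, and of 8 endothelial markers 1. Of 10 markers of the zona fasciculata and steroidogenic cells 6 rose, with list means of 11.54 to 11.64 in WT and 11.90 to 12.01 in KO females, and of 8 macrophage markers 4 rose. In intact males none of these 8 lists had a member that passed the test between KO and WT, and in GDX males 2 glomerulosa markers and 1 capsule marker fell, while 3 fasciculata markers rose (list means of 11.51 to 11.72 in WT and 11.80 to 11.90 in KO). The medulla list mean was 9.28 to 9.78 in WT and 9.66 to 9.94 in KO intact males, and 9.14 to 9.85 and 9.35 to 9.77 in WT and KO GDX males. In such bulk RNA, fewer cells of a type and less RNA per cell cannot be told apart.

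**Figure D1:**
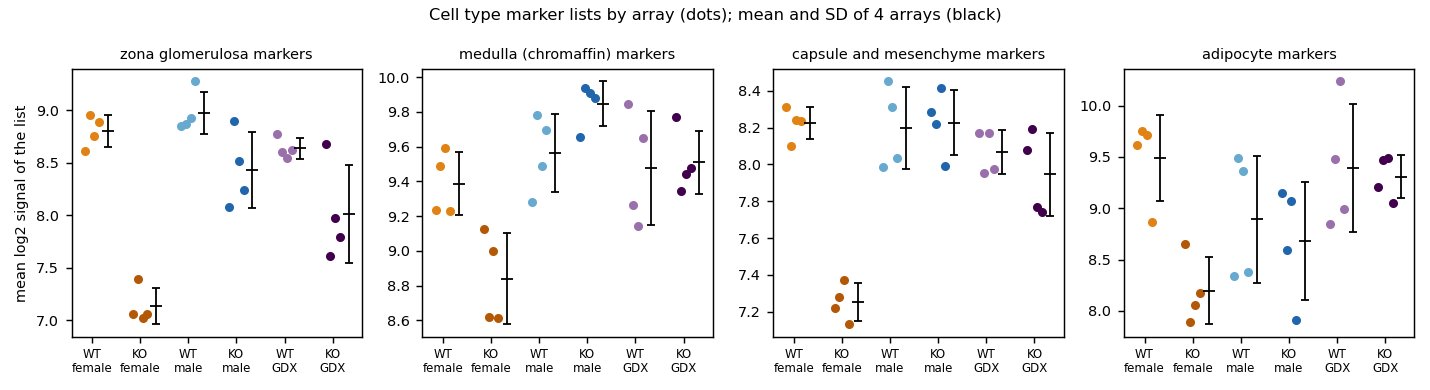
Mean log2 signal of 4 marker lists in each of the 24 arrays (dots, 4 a group), with the mean and SD of the group in black. The KO females lie below the WT females in the glomerulosa, medulla, capsule and adipocyte lists, without overlap of the arrays (7.02 to 7.39 against 8.61 to 8.95 in the glomerulosa list).

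Most potassium channel genes gave a low signal in the gland. The mean log2 signal over the 24 arrays had a median of 5.72 over the 64 members and of 6.93 over all genes tested, and 10 members had a mean over 7. Signals of different genes depend on their probes and are not compared as amounts of RNA. The 5 members with the highest mean signal were Kcna4, a voltage-gated subunit of rapidly inactivating currents, Kcnma1, the pore of the large-conductance calcium-activated channel, Kcnk9, Kcnn2, a small-conductance calcium-activated channel, and Kcnk1, a two-pore channel of weak activity. Kcna4 lay between 9.34 and 10.83 in all arrays and passed the test in none of the comparisons; its KO minus WT change was -0.23 ± 0.21 in females. Of the 64 members 43 stood over 5 in all 24 arrays, and 7 lay at or under 5 in at least 1 whole group, among them Kcnh1 and Kcnmb4, so the sizes given for these 2 genes are uncertain. None of the members passed the filter through 1 group alone. The tested members comprised 11 of 13 two-pore domain genes, 9 of 14 inward rectifiers, 18 of 26 voltage-gated pore genes, 7 of 10 electrically silent subunits, 7 of 8 calcium- or sodium-activated pore genes and 12 of 15 auxiliary subunits. The other 22 genes were too dim to test, with single arrays between 2.85 and 5.46. Kcnj5, an inward rectifier known for its mutations in human aldosterone-producing adenomas, was 1 of them, at 4.06 to 4.59.

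Promoter sequence is shown for 4 members that carry the results below: Kcnd2, which fell in all 3 KO groups, Kcnk5 and Kcnh1, which were higher in KO females, and Kcnmb4, which was lower in females and after gonadectomy. Each is the 250 bases before the gene's start in RefSeq on GRCm38.p6, 5′ to 3′ on the gene's strand. Capitals mark matches, on either strand, to the GC box GGGCGG or to AAGGTCA, the extended single site bound by NR5A1, a master regulator of steroidogenic cells. Kcnd2 lies on the plus strand (chr6:21215096-21215345), Kcnk5 on the minus strand (chr14:20181783-20182032), Kcnh1 on the plus strand (chr1:192190527-192190776) and Kcnmb4 on the minus strand (chr10:116473524-116473773).
Kcnd2: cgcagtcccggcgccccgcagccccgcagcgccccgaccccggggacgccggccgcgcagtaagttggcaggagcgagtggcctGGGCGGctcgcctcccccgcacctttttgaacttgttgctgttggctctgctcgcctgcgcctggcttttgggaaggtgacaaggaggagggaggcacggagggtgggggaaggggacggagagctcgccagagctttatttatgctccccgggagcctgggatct
Kcnk5: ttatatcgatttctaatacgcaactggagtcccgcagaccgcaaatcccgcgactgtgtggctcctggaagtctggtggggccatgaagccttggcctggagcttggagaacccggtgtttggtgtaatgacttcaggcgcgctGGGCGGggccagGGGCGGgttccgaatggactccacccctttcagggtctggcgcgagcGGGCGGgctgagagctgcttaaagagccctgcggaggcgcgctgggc
Kcnh1: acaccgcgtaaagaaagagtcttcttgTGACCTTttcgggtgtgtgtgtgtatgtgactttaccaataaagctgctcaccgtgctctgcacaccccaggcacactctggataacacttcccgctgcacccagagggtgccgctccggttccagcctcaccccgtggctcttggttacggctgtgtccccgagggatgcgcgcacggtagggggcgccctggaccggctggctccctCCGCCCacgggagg
Kcnmb4: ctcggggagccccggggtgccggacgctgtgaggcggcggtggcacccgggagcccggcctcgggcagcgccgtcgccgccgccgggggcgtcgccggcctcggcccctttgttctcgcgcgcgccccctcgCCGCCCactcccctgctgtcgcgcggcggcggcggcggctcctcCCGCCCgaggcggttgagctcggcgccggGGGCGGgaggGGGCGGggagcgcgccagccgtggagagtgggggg
The cyclic AMP response element TGACGTCA, the site of the kinase A target CREB, was found in 0 of the 46 tested members with an entry, against 1.55% of all 32851 promoter entries of this length. The letters AAGGTCA stood in 1 of the 46, Kcnh1, against 4.08% of all entries, and the GC box in 27 of 46, against 32.7% of all entries. The shorter TGACG, which is part of the cyclic AMP element, stood in 9 of the 46, against 17.8%, the TATA letters TATAAA in 1, Kcnj9, against 12.4%, and the palindromic androgen and glucocorticoid response element in 0, against 0.00913%. These matches describe the letters of this window only.

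Over the 6 groups 27 of the 64 members differed (42.2%; limma's moderated F test, adjusted p under 0.05), against 47.6% of all genes tested. The share of members that differed lay below that of all genes. Between KO and WT females the largest falls were in Kcnd2, Kcnk9, Kcnn2, Kcnq3 and Kcnma1, and the largest rises in Kcnh1 and Kcnk5. A different set, led by Kcnk1, Kcnmb4, Kcnt1 and Kcnab3, was high in intact males and lower in females and GDX males of both genotypes.

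**Figure D2:**
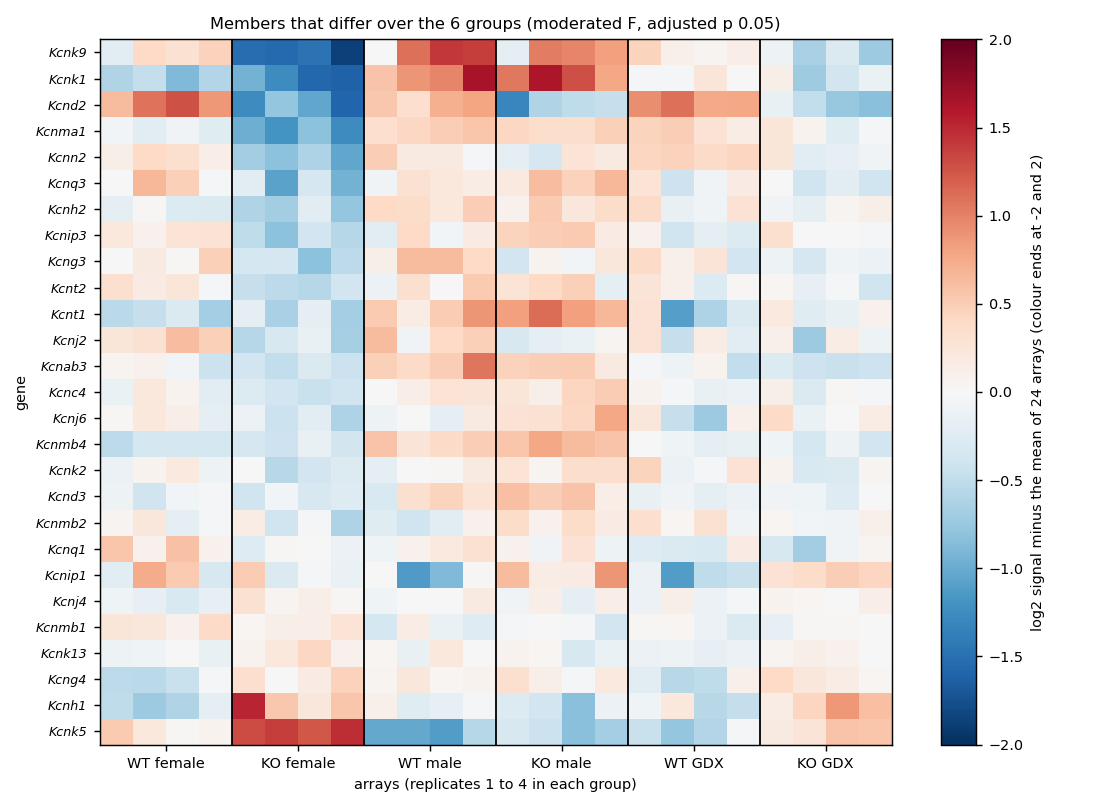
The 27 members that differed over the 6 groups (rows) in the 24 arrays (columns, 4 a group); colour is the log2 signal minus the mean of the gene over all arrays. The KO females hold the lowest values of Kcnk9, Kcnma1 and Kcnn2 and the highest of Kcnk5; the 8 intact males hold the highest values of Kcnk1 and Kcnmb4.

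Among the comparisons of KO with WT, 19 of 64 members were called in females (29.7%; 5 higher and 14 lower in KO), against 32.6% of all genes (13.9% higher and 18.7% lower). In intact males 1 member was called (1.56%, lower in KO), against 0.111% of all genes (0.0694% higher and 0.0416% lower). In GDX males 4 members were called (6.25%; 2 higher and 2 lower), against 4.23% of all genes (2.26% higher and 1.97% lower). The arrays of WT and KO did not overlap in 20 members among females, in 5 among intact males and in 9 among the GDX males, against 32.8%, 4.45% and 9.62% of all genes. The median change over the members was -0.08, 0.05 and 0.05 in females, intact males and GDX males, against -0.02, -0.01 and -0.01 over all genes tested. All 4 members called in GDX males were called in females in the same direction, and 1, Kcnd2, was called in all 3. The like share over all genes called in GDX males is not given here, so this overlap is not read as particular to the members. Females, intact males and GDX males share no arrays in these 3 comparisons, but share the filter and the estimate of the spread.

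Kcnd2 encodes a pore subunit of the fast transient A-type current, which delays the approach to the firing threshold in excitable cells. It fell in all 3 KO groups. The WT females stood at 6.84, 7.29, 7.48 and 7.08 and the KO females at 4.95, 5.44, 5.17 and 4.62. The WT intact males stood at 6.74, 6.53, 6.91 and 7.00 and the KO intact males at 4.90, 5.60, 5.70 and 5.74. The WT GDX males stood at 7.13, 7.30, 6.96 and 6.97 and the KO GDX males at 6.06, 5.71, 5.45 and 5.37. All 12 KO arrays lay below all 12 WT arrays. The change was -2.13 ± 0.19 in females (4.37-fold lower, adjusted p = 1.59e-07), -1.31 ± 0.19 in intact males (2.49-fold lower, adjusted p = 0.00547) and -1.44 ± 0.19 in the GDX males (2.72-fold lower, adjusted p = 0.000462). The fall was larger in females than in intact males by -0.81 ± 0.27 (adjusted p = 0.0474), a difference that did not pass under 21 of the 33 alternative settings and left-out arrays tried. With the intact males fitted on their own 8 arrays, the adjusted p of their change was 0.104. Several KO arrays lay at or near 5, where the array compresses differences, so the folds may be understated. The zona glomerulosa markers had a lower median in KO in all 3 comparisons, as Kcnd2 did (-1.07 in females, -0.42 in the intact and -0.33 in the GDX males), and the part of that list in the fall of Kcnd2 was not tested. The median KO change of the medulla markers was -0.57 in females, 0.23 in the intact and -0.02 in the GDX males. With the mean of the medulla markers as a covariate the Kcnd2 changes were -1.91, -1.43 and -1.46, and all 3 were called (adjusted p = 3.52e-05, 0.0111 and 0.000418).

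**Figure D3:**
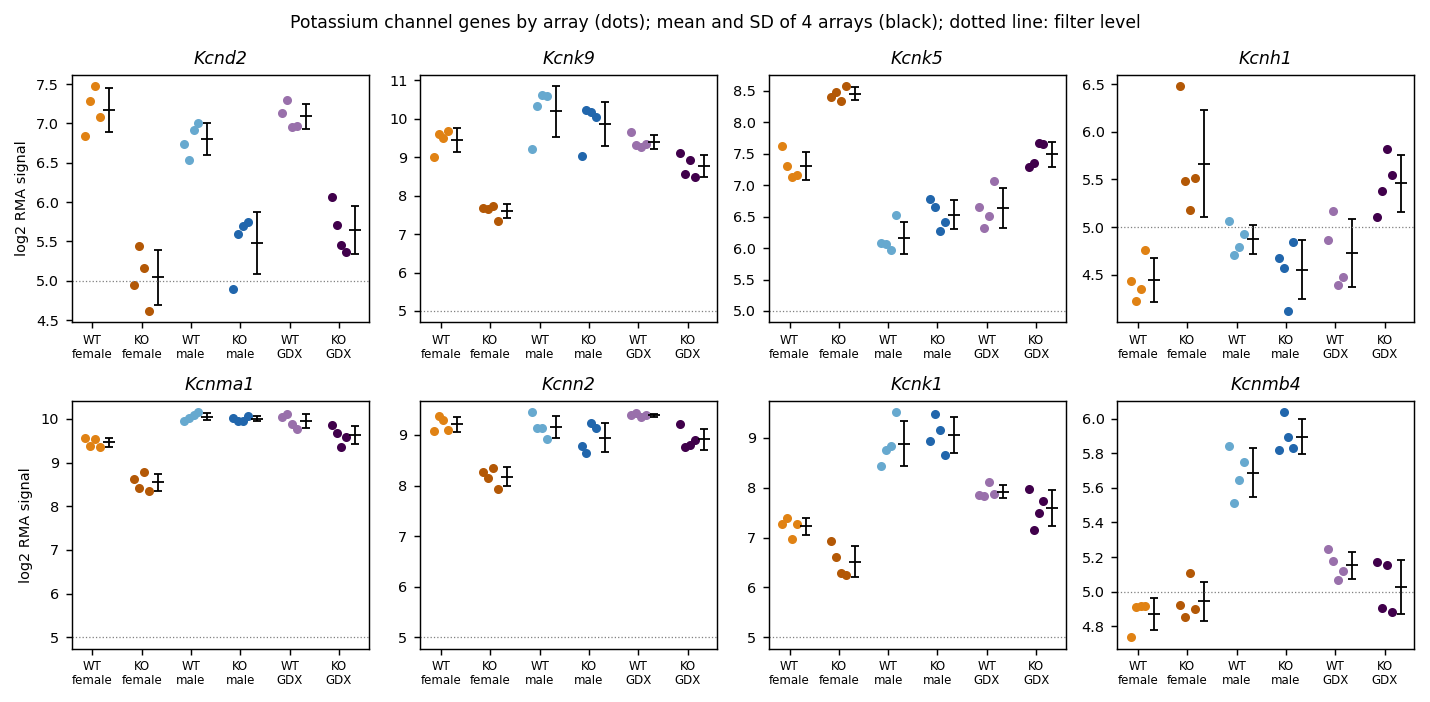
Log2 RMA signal of 8 members in each array (dots), with the mean and SD of 4 arrays in black and the filter level of 5 as a dotted line; the axes of the panels differ. Kcnd2 lies lower in every KO group than in its WT group, Kcnk9, Kcnma1 and Kcnn2 lie lowest in KO females, Kcnk5 is highest in KO females, and Kcnk1 and Kcnmb4 are highest in intact males.

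Among the two-pore domain genes, which encode leak channels, Kcnk9 fell in KO females. The WT females stood at 8.99, 9.60, 9.51 and 9.67 and the KO females at 7.68, 7.66, 7.73 and 7.34, without overlap. The WT intact males stood at 9.22, 10.32, 10.63 and 10.60 and the KO intact males at 9.02, 10.23, 10.18 and 10.03. The WT GDX males stood at 9.66, 9.31, 9.26 and 9.34 and the KO GDX males at 9.10, 8.56, 8.92 and 8.48. The KO GDX arrays lay below the WT GDX arrays, whereas the intact males overlapped, and in them array 1 of either genotype lay below the other 3. The change was -1.84 ± 0.27 in females (3.58-fold lower, adjusted p = 2.35e-05), -0.32 ± 0.27 in intact males (adjusted p = 0.864) and -0.63 ± 0.27 in the GDX males (adjusted p = 0.194). The difference between the female and the intact male change was itself called (-1.52 ± 0.38, adjusted p = 0.0102), and that between GDX and intact males was not (-0.30 ± 0.38, adjusted p = 0.864). With the medulla covariate the female change was -1.27 (adjusted p = 0.0047), while the difference between females and intact males was -0.65 ± 0.42 and no longer called (adjusted p = 0.482).

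Kcnk3, the partner of Kcnk9 in the glomerulosa leak current, was read through 2 probe sets that the platform annotation assigns to both Kcnk3 and Gm9899, so the RNA of these 2 genes cannot be told apart. The brighter probe set was 11.39 ± 0.07 in WT and 10.95 ± 0.09 in KO females (mean ± SD, n = 4), 11.46 ± 0.06 and 11.31 ± 0.12 for the intact males, and 11.27 ± 0.10 and 11.32 ± 0.03 for the GDX males. It was lower in KO females by -0.44 ± 0.06 (adjusted p = 3.42e-05, over 18595 probe sets), without overlap of the arrays (11.30 to 11.47 in WT and 10.83 to 11.03 in KO). Among the intact males the difference was -0.15 ± 0.06 (adjusted p = 0.602), and among the GDX males 0.05 ± 0.06 (adjusted p = 0.772). The dimmer probe set, at 7.26 ± 0.10 in WT and 6.93 ± 0.15 in KO females, was lower in KO females too (-0.33 ± 0.08, adjusted p = 0.00353). Its difference among the intact males was -0.18 ± 0.08 (adjusted p = 0.669). Among the GDX males it was -0.23 ± 0.08, opposite in sign to the brighter probe set and not called (adjusted p = 0.107, or 0.0319 without KO GDX array 1).

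Kcnk5 encodes a two-pore channel that is opened by alkaline pH, and it was higher in KO females and KO GDX males. The WT females stood at 7.62, 7.31, 7.12 and 7.16 and the KO females at 8.40, 8.48, 8.34 and 8.58. The WT intact males stood at 6.08, 6.06, 5.97 and 6.53 and the KO intact males at 6.77, 6.66, 6.26 and 6.41. The WT GDX males stood at 6.65, 6.32, 6.51 and 7.07 and the KO GDX males at 7.28, 7.35, 7.67 and 7.66. The groups of WT and KO did not overlap in females and in GDX males, and overlapped in intact males. Its change was 1.14 ± 0.15 in females (2.21-fold, adjusted p = 9.99e-06), 0.37 ± 0.15 in intact males (adjusted p = 0.593) and 0.85 ± 0.15 in the GDX males (1.81-fold, adjusted p = 0.00331, or 0.0601 with the GDX arrays fitted alone). The female change exceeded that of intact males by 0.78 ± 0.22 (adjusted p = 0.0189), and was 0.80 ± 0.29 with the medulla and 0.66 ± 0.24 with the adipocyte covariate, of similar size but not called (adjusted p = 0.17 and 0.0816). Kcnk13 also rose in KO females, by 0.28 ± 0.09 (adjusted p = 0.0156), and Kcnk1 fell by -0.71 ± 0.21 (adjusted p = 0.0128); both lost the call with either covariate. The other 7 of the 11 two-pore genes tested were not called between KO and WT in females, where 32.6% of all genes were called.

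Among the 18 voltage-gated pore genes tested, Kcnd2 and 5 others fell in KO females and 1, Kcnh1, rose. Of all genes 18.7% fell and 13.9% rose there. Kcnh1 encodes a channel of the ether-a-go-go family. The WT females stood at 4.44, 4.23, 4.35 and 4.76 and the KO females at 6.48, 5.49, 5.18 and 5.51. The WT and KO intact males lay between 4.12 and 5.06. The WT GDX males stood at 4.86, 5.16, 4.39 and 4.48 and the KO GDX males at 5.10, 5.38, 5.81 and 5.55. The arrays did not overlap in females, and all WT females lay under the filter level. The change was 1.22 ± 0.23 in females (adjusted p = 0.000292), -0.32 ± 0.23 in intact males (adjusted p = 0.82) and 0.74 ± 0.23 in the GDX males (adjusted p = 0.0656). The female and intact male changes differed by 1.54 ± 0.32 (adjusted p = 0.00326), and by 1.49 ± 0.43 with the medulla covariate (adjusted p = 0.0841). Kcnq3, a subunit of the muscarine-sensitive M current, stood at 7.00 to 7.70 in WT and 5.98 to 6.81 in KO females and fell by -0.92 ± 0.19 (adjusted p = 0.000831). Its fall was not called with the medulla covariate (adjusted p = 0.114). Kcnq1 (-0.41), Kcnh2 (-0.39), Kcnc4 (-0.36) and Kcnh3 (-0.30) fell as well, and none of these was called with the medulla covariate (adjusted p = 0.315 to 0.666). Among the electrically silent subunits, which alter other voltage-gated channels, Kcng4 rose in KO females (0.63 ± 0.13, adjusted p = 0.00114) and GDX males (0.50 ± 0.13, adjusted p = 0.0384), and Kcng3 fell in KO females (-0.67 ± 0.16, adjusted p = 0.00278).

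Calcium-activated channels couple intracellular calcium back to the membrane potential. Of the 7 genes of calcium- or sodium-activated pores 3 fell in KO females, where 18.7% of all genes fell. Kcnma1 stood at 9.56, 9.39, 9.54 and 9.36 in the WT and at 8.63, 8.42, 8.79 and 8.35 in the KO females. It lay between 9.95 and 10.16 in the WT intact males, between 9.96 and 10.08 in the KO intact males, between 9.76 and 10.10 in the WT GDX males and between 9.36 and 9.85 in the KO GDX males. Only in females were WT and KO apart in every array, and each female lay below each intact male. Its change was -0.91 ± 0.10 in females (1.88-fold lower, adjusted p = 1.08e-06), -0.05 ± 0.10 in intact males (adjusted p = 0.958) and -0.33 ± 0.10 in the GDX males (adjusted p = 0.0672), and the female and intact male changes differed by -0.86 ± 0.14 (adjusted p = 0.00064). Averaged with a second, dimmer Kcnma1 probe set, at 3.72 to 4.30 in all arrays, the female change was -0.50, and the highest adjusted p of the female change over all 33 alternatives was 0.000318. Kcnn2 stood at 9.08, 9.37, 9.29 and 9.10 in the WT and at 8.28, 8.15, 8.35 and 7.93 in the KO females. The KO GDX males, at 9.21, 8.75, 8.80 and 8.89, lay below the WT GDX males, at 9.39, 9.43, 9.35 and 9.39. The change was -1.03 ± 0.13 in females (2.05-fold lower, adjusted p = 5.47e-06), -0.22 ± 0.13 in intact males (adjusted p = 0.775) and -0.48 ± 0.13 in the GDX males (adjusted p = 0.0413). The GDX call ended when any of WT GDX arrays 1 to 4 or KO GDX arrays 2, 3 or 4 was left out. The same held for WT female array 3 and KO female array 2 (adjusted p = 0.0501 to 0.135 over these arrays). It also ended with the replicate block, with no filter and with the GDX arrays fitted alone (adjusted p = 0.0501, 0.0585 and 0.0738). With the medulla covariate the female falls of Kcnma1 and Kcnn2 were -0.78 and -0.91 and were called (adjusted p = 0.000264 and 0.000891). Kcnt2, a sodium-activated channel, fell by -0.66 ± 0.15 in KO females (adjusted p = 0.00165, or 0.108 with the medulla covariate).

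Of the inward rectifiers 2 of 9 and of the auxiliary subunits 1 of 12 were called in KO females, where 32.6% of all genes were called. Kcnj2, a classical strong inward rectifier, stood at 6.15 to 6.53 in WT and 5.25 to 5.75 in KO females and fell by -0.83 ± 0.19 (adjusted p = 0.00165, or 0.0505 with the medulla covariate). Kcnj4 rose in KO females by 0.30 ± 0.08 (adjusted p = 0.00623). The other 7 inward rectifiers tested were not called between KO and WT, among them Kcnj8 and Kcnj11, the pores of ATP-sensitive channels. Of the 12 auxiliary subunits, Kcnip3, a calcium-binding partner of Kcnd channels that also binds DNA, was the member called in females. It stood at 7.78, 7.66, 7.85 and 7.86 in the WT and at 7.07, 6.76, 7.19 and 7.00 in the KO females, a change of -0.78 ± 0.12 (adjusted p = 6.04e-05). In intact males it was 7.37 to 7.97 in WT and 7.74 to 8.09 in KO (0.33 ± 0.12, adjusted p = 0.52), and the female and intact male changes differed by -1.12 ± 0.18 (adjusted p = 0.000474; -0.69 with the medulla covariate, adjusted p = 0.0692). Kcnip1, another such partner, stood at 5.11 to 6.26 in WT and 6.37 to 7.11 in KO intact males (0.96 ± 0.28, adjusted p = 0.29), and at 5.12 to 6.11 and 6.52 to 6.72 in the GDX males (0.94 ± 0.28, adjusted p = 0.0553). Its arrays did not overlap in either male comparison, but neither change passed the test.

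**Figure D4:**
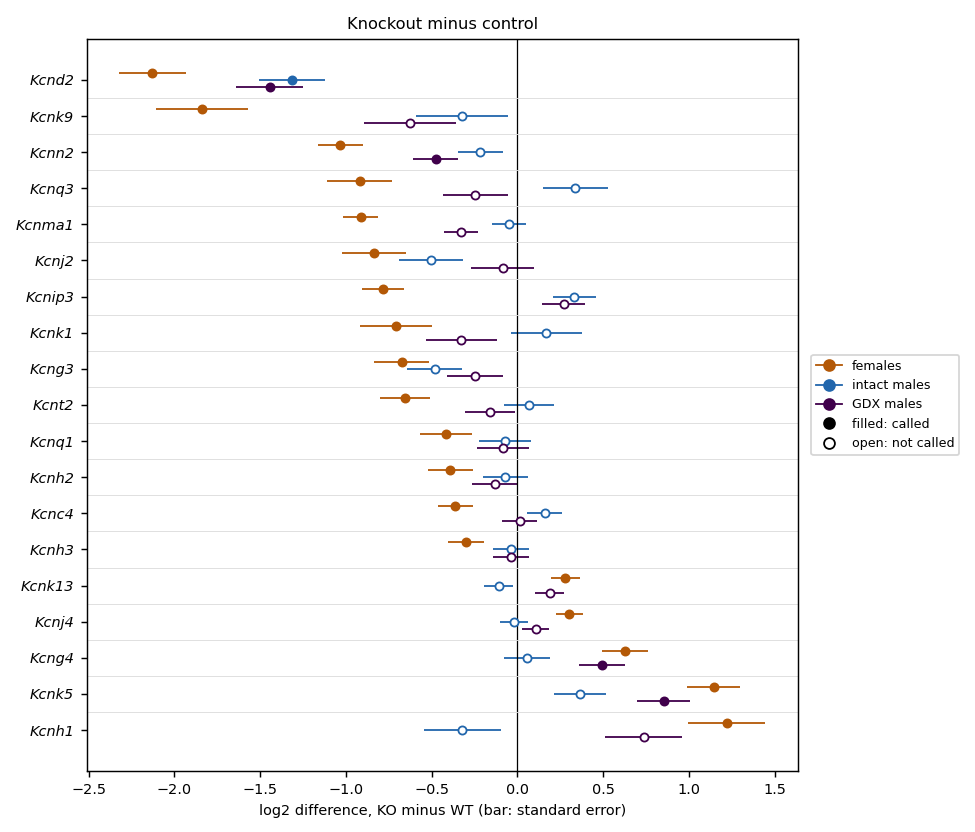
Log2 change, KO minus WT, with its standard error, of the 19 members called in females, in females, intact males and GDX males; filled points were called at adjusted p under 0.05. Kcnd2 is filled in all 3, Kcnn2, Kcng4 and Kcnk5 in females and GDX males, and the other 15 in females.

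The change with KO differed between females and intact males in 17 of 64 members (26.6%; 13 with a lower and 4 with a higher change in females), against 16.0% of all genes (8.78% lower and 7.19% higher). Besides the genes above these were Kcnc4, Kcnmb2, Kcnj6, Kcnip4, Kcnt2, Kcnk2 and Kcnk1, all lower, and Kcnk13 and Kcng4, both higher. The WT females and WT intact males within these differences also differed in Cre and in floxed alleles, which cannot be told apart from sex. In Kcnj6, Kcnip4, Kcnmb2 and Kcnk2 no change with KO was called in either sex, and each had a negative change in females (-0.39, -0.25, -0.25 and -0.31) and a positive one in intact males (0.48, 0.48, 0.44 and 0.26). With the medulla covariate 0 of the 17 were called, while the sizes went different ways: Kcnk5 (0.80) and Kcnh1 (1.49) stayed near their values without it, Kcnma1 (-0.66) and Kcnn2 (-0.62) kept most of theirs, and Kcnk9 (-0.65), Kcnq3 (-0.36) and Kcnj6 (-0.06) came closer to 0. With the covariate the standard errors were larger for Kcnk5, Kcnh1, Kcnma1, Kcnn2 and Kcnk9, and smaller for Kcnq3 and Kcnj6. The count over all genes with this covariate is not given here, so the loss of calls is not read as particular to the members. Between GDX and intact males the change with KO differed in 0 of 64 members (limma, adjusted p under 0.05; 10 at an unadjusted p under 0.05), against 0.0278% of all genes, and the largest difference was that of Kcnh1 (1.06 ± 0.32, adjusted p = 0.267).

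Several channel genes differed with sex and gonadal state. In WT mice 9 of 64 members were called between females and intact males (14.1%; 2 higher and 7 lower in females), against 7.75% of all genes (3.73% higher and 4.02% lower), and 4 between GDX and intact males (6.25%, all lower in GDX), against 4.5% of all genes (1.94% higher and 2.55% lower). In KO mice 22 were called between females and intact males (34.4%; 4 higher and 18 lower), against 41.0% of all genes (17.8% higher and 23.1% lower), and 11 between GDX and intact males (17.2%; 2 higher and 9 lower), against 15.4% (6.85% higher and 8.59% lower). In WT mice the arrays did not overlap in 11 members between females and intact males and in 4 between GDX and intact males, against 15.1% and 9.29% of all genes, and in KO mice in 20 and 11, against 36.6% and 19.0%. The female and the GDX comparison of a genotype share its intact males, so their values are given side by side and their likeness is not tested. Akr1c18, the marker of the X-zone, a transient inner layer of the mouse cortex, moved with these groups: it stood at 9.91 to 12.18 in WT and 12.75 to 12.86 in KO females, 4.10 to 4.51 in WT and 6.36 to 10.96 in KO intact males, and 12.04 to 12.66 and 12.62 to 12.76 in WT and KO GDX males. Between KO and WT it was higher in intact males (4.43 ± 0.73, adjusted p = 0.0103), where the KO arrays were split, at 10.90, 6.57, 6.36 and 10.96. Its part in the channel differences was not tested. Pik3c2g, the other X-zone gene listed, was too dim to test.

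Kcnk1 was highest in intact males. The WT intact males stood at 8.44, 8.75, 8.83 and 9.51 and the KO intact males at 8.92, 9.48, 9.16 and 8.64. The WT GDX males stood at 7.85, 7.83, 8.11 and 7.87 and the KO GDX males at 7.98, 7.15, 7.49 and 7.74. The WT females stood at 7.26, 7.38, 6.98 and 7.27 and the KO females at 6.92, 6.61, 6.29 and 6.25. All 8 intact males lay above all 16 other arrays, and the KO females below all others. Against intact males the difference was -1.66 ± 0.21 in WT females (3.16-fold lower, adjusted p = 2.40e-05) and -0.97 ± 0.21 in WT GDX males (1.96-fold lower, adjusted p = 0.0104, or 0.0531 with these 8 arrays fitted alone). In KO mice it was -2.53 ± 0.21 in females (5.79-fold lower, adjusted p = 2.07e-08) and -1.46 ± 0.21 in the GDX males (2.76-fold lower, adjusted p = 0.000121).

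Kcnmb4, an auxiliary subunit of the Kcnma1 channel, followed the same order of intact males over the rest. It stood at 5.84, 5.51, 5.65 and 5.75 in the WT and at 5.82, 6.04, 5.89 and 5.83 in the KO intact males, against 4.88 to 5.25 in the 8 GDX males and 4.74 to 5.11 in the 8 females. The intact males lay above all other arrays, while the GDX males and females overlapped, near the filter level. The differences from intact males were -0.82 ± 0.08 in WT females (adjusted p = 1.68e-06), -0.54 ± 0.08 in WT GDX males (adjusted p = 0.000628), -0.95 ± 0.08 in KO females (adjusted p = 4.15e-08) and -0.87 ± 0.08 in KO GDX males (adjusted p = 3.70e-06). Between KO and WT it was not called in any of the 3 comparisons. A probe set shared with the antisense gene Kcnmb4os1 lay between 4.93 and 5.41 in all arrays and was not called in any of these comparisons. Its differences were -0.08 in WT females (adjusted p = 0.687) and -0.22 in WT GDX males (adjusted p = 0.253). In KO females and KO GDX males they were 0.02 and -0.03 (adjusted p = 0.915 and 0.892). Averaged with a second, dimmer probe set of Kcnmb4 alone, at 3.91 to 4.69 in all arrays, the Kcnmb4 difference in WT females was -0.54.

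Kcnab3, an auxiliary beta subunit of voltage-gated channels, was 6.38 ± 0.32 in WT and 6.18 ± 0.16 in KO intact males, against 5.69 ± 0.24 and 5.37 ± 0.09 in WT and KO females and 5.63 ± 0.24 and 5.39 ± 0.08 in WT and KO GDX males (mean ± SD, n = 4). It was lower than in intact males by -0.69 ± 0.14 in WT females (adjusted p = 0.00271) and -0.75 ± 0.14 in WT GDX males (adjusted p = 0.00364, or 0.0682 with these groups fitted alone). Averaged with a second, dimmer Kcnab3 probe set, at 3.96 to 4.57 in all arrays, these WT differences were -0.39 and -0.40. In KO mice the Kcnab3 differences were -0.81 in females (adjusted p = 7.65e-05, or 0.112 with the medulla covariate) and -0.79 in GDX males (adjusted p = 0.000665). Kcnt1, a sodium-activated channel, was 7.05 ± 0.30 and 7.39 ± 0.19 in WT and KO intact males, 6.04 ± 0.16 and 6.11 ± 0.28 in females, and 6.10 ± 0.58 and 6.51 ± 0.20 in GDX males. Its differences in WT mice were -1.01 ± 0.21 in females (adjusted p = 0.00352) and -0.95 ± 0.21 in the GDX males (adjusted p = 0.012). The latter call ended without WT GDX array 2 (adjusted p = 0.0508) or WT male array 4 (adjusted p = 0.0548). It also ended when only the WT GDX and WT intact males were fitted (adjusted p = 0.12). The KO females and KO GDX males lay below KO intact males by -1.28 and -0.88 for Kcnt1 (adjusted p = 4.98e-05 and 0.00717). With the medulla covariate these KO differences were -0.33 and -0.56, and neither was called (adjusted p = 0.566 and 0.064).

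Kcnk5 went the other way, with higher values in females. It exceeded intact males by 1.14 ± 0.15 in WT females (adjusted p = 5.11e-05), 1.92 ± 0.15 in KO females (adjusted p = 1.42e-08) and 0.96 ± 0.15 in KO GDX males (adjusted p = 0.000305). The order of its group means was KO females, KO GDX males, WT females, WT GDX males, KO males and WT males. The arrays of WT females (7.12 to 7.62) and KO GDX males (7.28 to 7.67) overlapped, as did those of WT GDX and KO intact males. Kcnma1 was lower than in intact males in WT females (-0.59 ± 0.10, adjusted p = 0.000641), KO females (-1.46 ± 0.10, adjusted p = 2.29e-09) and KO GDX males (-0.38 ± 0.10, adjusted p = 0.0134, or 0.0648 without KO GDX array 3). Kcnh2 (-0.55) and Kcng4 (-0.49) were lower and Kcnmb1 (0.38) higher in WT females than in WT intact males.

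Kcnk9 was below the intact males by -0.75 ± 0.27 in WT females (adjusted p = 0.0944) and -0.80 ± 0.27 in WT GDX males (adjusted p = 0.0973). Without WT male array 1 these were -1.07 and -1.12 and were called (adjusted p = 0.00412 and 0.00502), and the former was also called without KO male array 1 (adjusted p = 0.0493). In KO mice it was lower in females by -2.26 ± 0.27 (adjusted p = 1.29e-06, or 0.0795 with the medulla covariate) and in GDX males by -1.10 ± 0.27 (adjusted p = 0.00841, or 0.0777 with that covariate). Kcnd2 was called in none of the 4 comparisons with intact males; its difference in KO females was -0.44 ± 0.19 (adjusted p = 0.0747), and -0.64 without KO male array 1 (adjusted p = 0.00839) and -0.57 without KO female array 2 (adjusted p = 0.0297), but -0.03 with the medulla covariate (adjusted p = 0.969). Between KO females and KO intact males 12 of 13 medulla markers were lower in females, with list means of 8.61 to 9.12 against 9.66 to 9.94, as were 7 of 8 endothelial markers (8.46 to 8.66 against 8.76 to 9.05) and 7 of 7 capsule markers. With the medulla covariate 4 of 64 members were called in that comparison in place of 22. The medulla means of these groups do not overlap, so the covariate can also take up part of the difference between them. The count over all genes with this covariate is not given here, so the loss is not read as particular to the members.

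**Figure D5:**
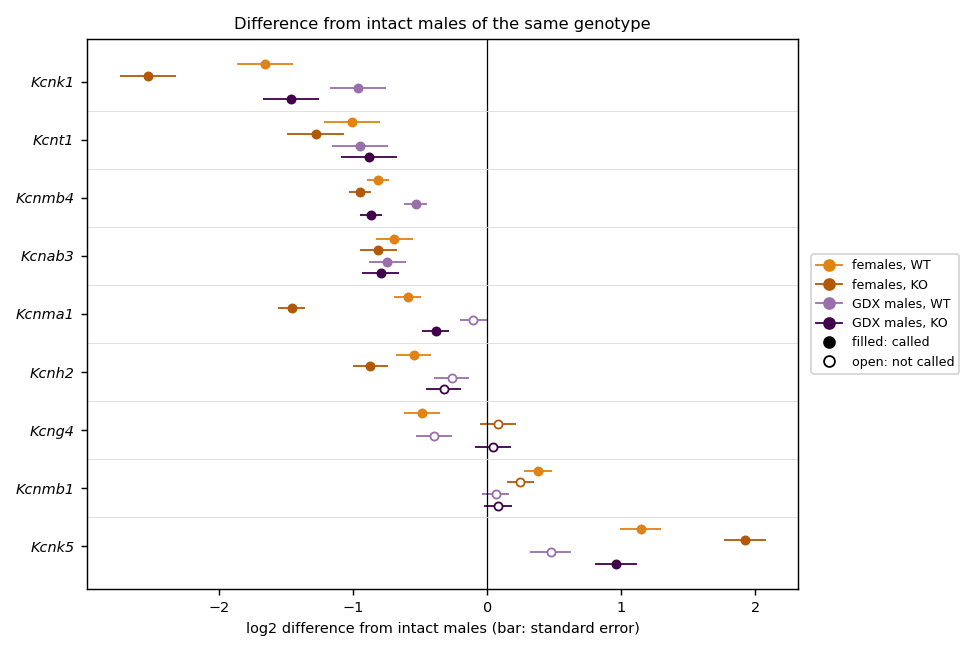
Log2 difference from the intact males of the same genotype, with its standard error, in females and GDX males of either genotype, for the 9 members called in a WT comparison; filled points were called. Kcnk1, Kcnt1, Kcnmb4 and Kcnab3 lie below 0 and are filled in all 4 comparisons, and Kcnk5 lies above 0 in all 4 and is filled in 3.

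Other genes that set the membrane potential were read from lists chosen for their function, and in KO females 13.9% of all genes rose and 18.7% fell. Of 13 voltage-gated calcium channel genes 7 fell and none rose in KO females, led by Cacna1c (-1.60 ± 0.13, adjusted p = 4.40e-08), an L-type pore, and Cacna1h (-1.43 ± 0.16, adjusted p = 9.65e-07), a T-type pore that drives calcium entry in glomerulosa cells. In KO GDX males 1, Cacna1c, fell (-0.57 ± 0.13, adjusted p = 0.0135), and in intact males none of the 13 was called. Of 9 sodium, leak and related cation or chloride channel genes 5 fell and 1 rose in KO females, with Nalcn (-0.71 ± 0.13, adjusted p = 0.000233), a sodium leak channel, among the falls. Of 12 pumps and exchangers 5 fell, led by Slc12a2 (-1.50 ± 0.18, adjusted p = 2.54e-06), a sodium, potassium and chloride cotransporter that also fell in KO GDX males (-0.64 ± 0.18, adjusted p = 0.0433). Of 8 channel partners outside the Kcn names 2 fell, Lrrc55 (-1.0 ± 0.24, adjusted p = 0.00313), an auxiliary subunit of the Kcnma1 channel, and Dpp6 (-0.47 ± 0.16, adjusted p = 0.0269), an auxiliary subunit of the Kcnd2 channel. The medians of these 4 lists in KO females were -0.28, -0.43, -0.17 and -0.06, against -0.02 over all genes. In WT mice, Clcn2, a chloride channel of the glomerulosa, was higher than in intact males in females (0.91 ± 0.12, adjusted p = 4.61e-05) and in the GDX males (0.62 ± 0.12, adjusted p = 0.00544), and Cacna1d, a further L-type pore, was lower in both (-0.46 and -0.57).

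With the mean of the medulla markers as a covariate 9 of the 19 members called in KO females were called, namely Kcnd2, Kcnma1, Kcnk5, Kcnn2, Kcng4, Kcnk9, Kcnh1, Kcnip3 and Kcnj4. With the adipocyte mean 12 of the 19 were called. Counts over all genes with these covariates are not given here. The covariates differ between WT and KO females without overlap of the arrays, so they can also take up part of the difference between these groups. The glomerulosa, capsule and fasciculata markers, which also differed between these groups, were not used as covariates, and the part of the cell types in any of the 19 changes was not tested beyond this.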

How the data were processed

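Per the labels' protocols, 500 ng of RNA a gland were labelled with an Affymetrix WT PLUS kit, 1 array a sample. The deposited values are log2 signals, which the authors made with RMA (background correction, normalization and summary by probe set), as the submitters' processing notes name it, with no version given there. Array medians lay between 5.20 and 5.29. The precision is limited by 4 arrays a group, labelled as separate biological replicates; no batch is used here.

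Of 32202 probe sets 22943 carry 1 gene symbol, 1731 several and 7528 none. Each of 21957 genes was represented by its brightest 1-symbol probe set, and a gene was kept if at least 4 arrays exceeded 5, as 14411 genes did. All comparisons are contrasts of the 6 group means in 1 limma fit (limma 3.58.1, R 4.3.3; lmFit and eBayes, 18 residual and 3.41 prior degrees of freedom), with Benjamini-Hochberg adjustment over all genes tested and calls at an adjusted p of 0.05. The shared Kcnk3 and Gm9899 probe sets were fitted with all 18595 probe sets over the filter, which was added once the data had been seen. The fit was tested on simulated data. Second probe sets of members, all dimmer, entered only the averaging alternative and the fit of probe sets. In the latter, that of Kcna6 was lower in WT females than in WT intact males (-0.40 ± 0.11, adjusted p = 0.0246). The brighter Kcna6 probe set, with means of 5.30 and 5.44 in these groups, was not called.

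Members given by array are Kcnd2, Kcnk9, those called between KO and WT (or in the interactions) with a change of at least 0.5, up to 10 a comparison, up to 5 in the other comparisons, and the 5 brightest. The members, lists and tests were chosen with earlier results of these data known. Alternatives were no filter, a filter on the mean, the mean of probe sets, another quantile normalization, fits on the compared groups alone, eBayes with trend, a replicate block, marker covariates and each array left out. Promoters come from RefSeq (GRCm38.p6), which held entries for 46 of the 64 members.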

Additional observations from a re-analysis of the deposited data

Results flagged for a closer look

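In 8 of 90 groups of 4 arrays looked at among the 15 genes given by array, 1 array stood apart from the other 3; the limit used, Dixon's critical value, is set so that chance passes it in about 1 in 20 groups. KO male array 1 was low for Kcnk9 (9.02, others 10.03 to 10.23) and Kcnd2 (4.90, others 5.60 to 5.74). KO GDX array 1 was high for Kcnip3 (7.89, others 7.55 to 7.59), WT GDX array 3 high for Kcnk1 (8.11, others 7.83 to 7.87) and WT female array 1 low for Kcnmb4 (4.74, others 4.91 to 4.92). For Kcnab3 WT male array 4 was high (6.85, others 6.15 to 6.27) and KO male array 4 low (5.95, others 6.23 to 6.28). KO female array 3 was low for Kcna4 (9.34, others 9.77 to 9.84).

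The change with KO differed between females and intact males in 17 members by limma's interaction term. It was lower in females for Kcnk9 (-1.52), Kcnq3 (-1.26), Kcnip3 (-1.12), Kcnk1 (-0.87), Kcnma1 (-0.86), Kcnj6 (-0.86), Kcnn2 (-0.82), Kcnd2 (-0.81), Kcnip4 (-0.72), Kcnt2 (-0.72), Kcnmb2 (-0.69), Kcnk2 (-0.57) and Kcnc4 (-0.52). It was higher in females for Kcnh1 (1.54), Kcnk5 (0.78), Kcng4 (0.57) and Kcnk13 (0.39). The adjusted p of these ran from 0.000474 (Kcnip3) to 0.0475 (Kcnk1). For Kcnk1 the call ended under 24 and for Kcnd2 under 21 of 33 alternatives.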

How the results depend on the processing

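The counts of members called moved by over 1.5 times under few alternatives. Counts over all genes under these alternatives are not given here, so the moves are not read as particular to the members. With the medulla covariate they were 9 in place of 19 for KO against WT in females, 4 in place of 22 for KO females against KO intact males, 6 in place of 11 for KO GDX against KO intact males, and 0 in place of 17 for the difference in KO change between females and intact males (10 with the adipocyte covariate). With only the arrays of the groups compared they were 0 in place of 1 for KO against WT in intact males, 1 in place of 4 in GDX males, and 1 in place of 4 for WT GDX against WT intact males. With no filter the count for GDX males was 2. Leaving out 1 array gave 16 to 20 calls in females, 1 in intact males, 2 to 5 in GDX males (2 without WT GDX arrays 2 or 3 or KO GDX arrays 2, 3 or 4), 7 to 10 and 19 to 23 for females against intact males in WT and KO, 3 to 6 and 10 to 13 for GDX against intact males in WT and KO, 12 to 18 and 0 for the differences in KO change of females and of GDX males from intact males, and 23 to 28 over the 6 groups. Of 55 called results of single genes given by array, 24 kept direction and call under every alternative in which they could be fitted, 30 lost the call in at least 1, of which 6 in leaving out 1 array, and 1 reversed: Kcnj6 between KO females and KO intact males was 0.18 with the medulla covariate. Of uncalled values, Kcnd2 between KO GDX and KO intact males ranged, with 1 array left out, from -0.033 without KO male array 1 to 0.25 without KO GDX array 4 (0.30 with the medulla covariate), and the Kcnk9 difference between the GDX and intact male changes from -0.58 without KO male array 1 to 0.023 without WT male array 1. Kcnh1 could not be fitted with the filter on the mean. Same-numbered arrays of different groups did not deviate together (correlations of -0.31 to 0.24, over 0.1 in 16 of 60 pairs; 4 of 24 arrays correlated best with their own number), so the numbers are not taken to pair the samples. With the replicate block the counts were 19, 1 and 3 for KO against WT in females, intact males and GDX males, 9 and 21 for females against intact males in WT and KO, 4 and 12 for GDX against intact males, 15 and 0 for the differences in change, and 27 over the 6 groups. Genes near a log2 signal of 5 are limited by the array's background.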
